A study of Mus musculus with 18 samples.

Results

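The comparison described here is between the mTEChi and mTEClo sort gates of medullary thymic epithelium in mice that lack Aire. It sets 3 libraries of KO mTEChi against 3 libraries of KO mTEClo. The gates stand for a mature and an immature stage, and maturation itself was not followed. The study sequenced 18 RNA libraries, 3 for each of cortical thymic epithelial cells (cTEC), mTEClo and mTEChi from wild-type (WT) and Aire KO mice. All mice were 6-8 weeks old, and the strain label of every sample, WT included, is that of the Aire mutant line B6.129S2-Airetm1.1Doi/J. The cells were sorted by flow cytometry from disrupted and digested thymi. The labels do not name the surface protein that separates lo from hi, the part of Aire that is deleted, or whether the replicates of a group are separate mice or pools, so p-values measure only the spread between these libraries. A gene was a member of the comparison when 3 or more of the 6 KO mTEC libraries reached 0.1 RPKM, and 16941 of 23063 genes passed. RPKM is the deposited level per kilobase of gene model, scaled to the size of the library. The WT mTEClo and WT mTEChi libraries, 3 of each, served to ask where the KO difference departs from the WT one.

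Medullary thymic epithelial cells show developing T cells a sample of the proteins of the whole body, which removes or diverts T cells that recognise them. Immature mTEClo cells mature into mTEChi cells, which carry more MHC class II and costimulatory molecules and turn on Aire, a nuclear protein that drives the transcription of many tissue-restricted genes. Some tissue-restricted genes are transcribed in mTEChi without Aire, and the transcription factor Fezf2 is known to act on some of them. The mTEClo gate is also known to hold cells past the Aire stage, among them tuft-like and keratinocyte-like cells.

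The 6 libraries had between 6.25 and 11.6 Gb of aligned bases on genes in KO mTEChi and between 6.48 and 9.43 Gb in KO mTEClo, and no library stood apart from its group. The 10 most abundant genes took 13 to 13.5% of all RPKM in KO mTEChi and 5.88 to 6.14% in KO mTEClo. RPKM are relative to the whole library, so a gene's RPKM also falls when other genes take a larger share. The number of genes at 0.1 RPKM or more was 16467.3 ± 42.3 in KO mTEChi and 16358.0 ± 116.1 in KO mTEClo (SD, n = 3). The difference of 109.3 genes was within the spread between libraries (exact permutation test, two-sided, p = 0.3, smallest possible p = 0.1). At 1 RPKM or more the order was the opposite, with 12684.3 ± 71.7 genes in KO mTEChi against 12934.0 ± 93.5 (exact permutation test, two-sided, p = 0.1), and the 3 mTEChi libraries all lay below the 3 mTEClo libraries.

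Levels differed widely all the same. By limma on log2(RPKM + 0.1), with a Benjamini-Hochberg adjusted p under 0.05 over the 16941 genes, 12696 genes (74.9%) differed between KO mTEChi and KO mTEClo. Of all genes tested 25.5% (4313) were higher and 49.5% (8383) were lower in mTEChi, and these shares are the background for every count of members below. The median difference over all genes was -0.31 on the log2 scale. With quantile-normalized values the median was -0.05 and the split became 5586 higher and 6456 lower. Small falls therefore depend on the scaling. Of the genes called lower and named below, Cd274, Erap1, Itga6, Lct, Mcm6, Rela, Rfxank, Tap1, Tap2, Tgm4 and Tnfrsf19 were above 0 when each library was centred on the median of its housekeeping genes, a setting that moved the median of all genes to 0.46. The 3 libraries of each gate did not overlap for 28.2% of all genes tested in the direction of mTEChi and for 53.2% in that of mTEClo. In WT 70.6% of the same genes differed between the gates, 35.1% higher and 35.5% lower. By at least 2-fold, 16.2% of genes (2751) were higher and 23.1% (3918) lower. Below, levels are RPKM, ± is the SD over 3 libraries, differences are mTEChi minus mTEClo on the log2(RPKM + 0.1) scale with their standard error (SE), and adjusted p is limma's over all 16941 genes. The deposited values are bulk averages, in which fewer cells of a type and less RNA per cell cannot be told apart.

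**Figure D1:**
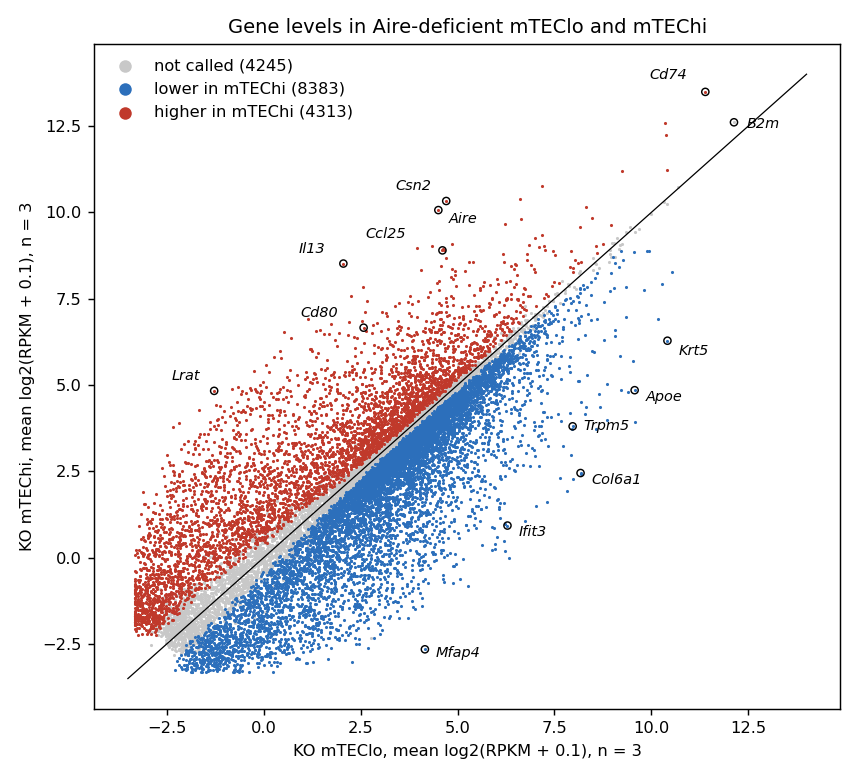
Mean log2(RPKM + 0.1) of each of the 16941 genes in the 3 KO mTEClo libraries (x axis) and the 3 KO mTEChi libraries (y axis), with the line of equal level. Red genes (4313) were called higher and blue genes (8383) lower in mTEChi, grey genes (4245) were not called, and circled genes are named in the text.

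Aire itself checks the gates. Its RPKM was 1126, 1001 and 1092 in the KO mTEChi libraries and 33.1, 21.5 and 16.3 in the KO mTEClo libraries, a difference of 5.56 (SE 0.42, adjusted p = 6.8e-09). The transcript was thus abundant in every KO mTEChi library, and the groups were far apart. The tables give 1 value per gene, so the deleted part of Aire cannot be read from them. WT mTEChi had 677 ± 17.9 and WT mTEClo 9.90 ± 2.62, and the mTEChi minus mTEClo difference did not pass the test for a difference between genotypes (-0.55, SE 0.60, adjusted p = 0.5).

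The markers of mature mTEC were higher in KO mTEChi without exception, 13 of 13 members of the list, with a median of 3.03. The costimulatory ligand Cd80 had 102, 98.9 and 103 RPKM in mTEChi and 6.76, 6.15 and 4.87 in mTEClo (4.08, SE 0.40, adjusted p = 1.4e-07). Its partner Cd86 rose from 0.614 ± 0.0773 to 18.5 ± 0.811 (4.71). The receptor Cd40, which receives signals from T cells, rose from 11.0 ± 2.52 to 88.6 ± 9.0 (3.03). The 3 mTEChi libraries lay above the 3 mTEClo libraries for each of these genes. The receptor for RANKL, Tnfrsf11a, rose by less (2.05, from 15.8 ± 2.85 to 65.2 ± 3.57), as did Il2ra (1.12, adjusted p = 0.0066), which had the smallest difference of the list. The other members were Aire, Ubd (3.77), Tnfrsf4 (3.81), Tnfrsf9 (4.29), Cd83 (2.44), Ly75 (1.42) and 2 transcription regulators. Fezf2 had 56.8, 46.5 and 40.3 RPKM in mTEClo and 216, 218 and 209.5 in mTEChi (2.18, SE 0.23). Ciita, the master regulator of MHC class II genes, had 22.6, 23.1 and 18.4 in mTEClo and 97.9, 89.8 and 93.1 in mTEChi (2.13, SE 0.11). In WT libraries the same 13 genes were higher in mTEChi, with a median of 3.23.

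MHC class II genes rose with Ciita, 14 of 17 members, and 3 fell. H2-Aa, a chain of the class II molecule, had 6076, 6789 and 5752 RPKM in mTEChi and 1333, 1398 and 1197 in mTEClo (2.24, SE 0.17, adjusted p = 8.8e-09). Cd74, the invariant chain that escorts class II molecules, was the most abundant gene of KO mTEChi, at 11493 ± 328 against 2687 ± 150.0 (2.10). H2-Ab1 (1.86) and H2-Eb1 (1.96) rose by about as much as Cd74. The largest rises were those of the less abundant class II genes H2-Eb2 (25.0 ± 5.70 to 493 ± 21.8, 4.32), H2-Ob (7.62 ± 1.78 to 111 ± 2.73, 3.87) and H2-Oa (39.7 ± 4.11 to 375 ± 19.4, 3.24), the last 2 being the chains of H2-O, which restrains peptide loading. The peptide loader H2-DM rose too, with H2-DMb1 at 1.72, H2-DMb2 at 2.38 and H2-DMa at 0.77. The lysosomal protease Ctss (2.59) and the thiol reductase Ifi30 (1.5) prepare antigen for this pathway and also rose. Rfx5, a subunit of the factor that binds class II promoters, rose from 12.3 ± 0.307 to 45.7 ± 2.34 (1.88), while its partners Rfxap (-1.0) and Rfxank (-0.46) fell. March1, a ligase that removes class II molecules from the cell surface, had 0.857, 0.827 and 0.825 RPKM in mTEClo and 0.0503, 0.0877 and 0.0704 in mTEChi (-2.47, adjusted p = 7.2e-06). It reached 0.1 RPKM in no KO mTEChi library and passed the filter through mTEClo alone, so its direction was set by the filter.

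The promoters of the class II genes carry the set of short elements that class II regulators read, one of which is the Y box with the core GATTGG. RefSeq promoter windows (GRCm38.p6) were found for 13 of the 17 members and not for H2-Ab1, Cd74, Ciita and Rfxap. GATTGG, searched on both strands within 250 bases before the start, was present in 9 of the 13 windows and in 14.6% of all 32851 RefSeq windows of this length. The windows of 4 class II genes that rose are shown with the matches in capitals. A match is a description of the letters and not of binding.
H2-Eb1 (chr17:34305617-34305866, plus strand): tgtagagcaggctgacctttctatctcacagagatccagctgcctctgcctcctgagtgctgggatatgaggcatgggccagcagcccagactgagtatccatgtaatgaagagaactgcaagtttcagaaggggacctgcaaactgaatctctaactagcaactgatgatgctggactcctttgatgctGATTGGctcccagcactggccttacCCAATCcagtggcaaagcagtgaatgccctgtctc
H2-Oa (chr17:34092129-34092378, plus strand): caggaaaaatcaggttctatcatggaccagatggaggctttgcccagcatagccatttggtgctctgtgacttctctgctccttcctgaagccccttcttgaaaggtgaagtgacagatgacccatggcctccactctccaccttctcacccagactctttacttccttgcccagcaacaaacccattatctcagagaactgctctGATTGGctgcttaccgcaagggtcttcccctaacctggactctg
H2-Ob (chr17:34238655-34238904, plus strand): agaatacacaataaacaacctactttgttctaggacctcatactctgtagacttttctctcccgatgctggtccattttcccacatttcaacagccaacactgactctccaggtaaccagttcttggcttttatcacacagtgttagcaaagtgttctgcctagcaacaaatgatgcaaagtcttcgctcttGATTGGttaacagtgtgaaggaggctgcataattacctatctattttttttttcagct
H2-DMb1 (chr17:34152941-34153190, plus strand): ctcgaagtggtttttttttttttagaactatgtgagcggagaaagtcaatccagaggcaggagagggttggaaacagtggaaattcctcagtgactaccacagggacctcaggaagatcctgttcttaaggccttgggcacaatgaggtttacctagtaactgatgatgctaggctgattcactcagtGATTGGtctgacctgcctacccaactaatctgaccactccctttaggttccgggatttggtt

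The match nearest to the start lay 35 bases before it in H2-Eb1, 44 in H2-Oa, 58 in H2-Ob and 62 in H2-DMb1.

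Dendritic cells and B cells also express class II genes, so their markers are given beside this result. Of the dendritic cell and macrophage list 13 of 15 members passed the filter, 9 were higher in KO mTEChi and none was lower, and the summed level of the list was 412.9 to 442.8 RPKM in mTEChi and 76.86 to 145.2 in mTEClo. Most of that sum was Lyz2 (349 ± 16.7 and 88.0 ± 37.0). Batf3 (35.8 ± 2.0 and 2.06 ± 0.660), Cd68 (21.1 ± 1.45 and 5.73 ± 1.12), Zbtb46 (12.3 ± 0.698 and 3.0 ± 0.360), Flt3 (3.50 ± 0.225 and 0.274 ± 0.211) and Csf1r (3.30 ± 0.693 and 0.575 ± 0.222) were among the members that rose. The surface markers Itgax (0.462 ± 0.0631 and 0.719 ± 0.248), Itgam (0.687 ± 0.0683 and 0.657 ± 0.272) and Emr1 (0.198 ± 0.0684 and 0.288 ± 0.0762) were under 1 RPKM in both gates and were not called. Of the B and plasma cell list 6 of 9 members were higher, among them Blk (0.311 ± 0.0546 to 13.9 ± 0.340), with a summed level of 47.94 to 52.54 in mTEChi and 32.76 to 38.75 in mTEClo. The signalling chain Cd79a stayed low (0.422 ± 0.0605 and 0.160 ± 0.0856, adjusted p = 0.11). The part of these cell types in the class II result was not tested.

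MHC class I genes differed less. Of 17 members 8 were higher and 3 lower, with a median of 0.30, and centred on the housekeeping median all 17 were higher, with a median of 1.07. The light chain B2m had 6249 ± 389 in mTEChi and 4484 ± 249 in mTEClo (adjusted p = 0.083), and the heavy chain H2-K1 had 1699.8 ± 58.1 and 1637 ± 18.9 (adjusted p = 0.74), but with quantile-normalized values, which compress the most abundant genes, both were lower (-0.91 and -0.76). The members that rose most were the proteasome subunit Psmb10 (1.24), the class Ib gene H2-M3 (1.20), the proteasome activator Psme2 (1.05) and the peptide editor Tapbp (1.05). The transporter genes Tap1 (-0.48) and Tap2 (-0.29) and the trimming peptidase Erap1 (-0.47) were lower, by amounts close to the median of all genes.

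Costimulation genes rose in 9 of 14 cases and fell in 2. Beside Cd80, Cd86 and Cd40 the rises were large for Cd70 (1.59 ± 0.707 to 43.3 ± 4.39, 4.76), which supports regulatory T cells in the thymus, for Tnfsf9 (3.61) and for Icosl (23.1 ± 4.52 to 257 ± 7.64, 3.49), the ligand of Icos. Tnfsf4 (1.29), Tnfsf15 (0.77) and Cd276 (0.48) rose by less. Cd274, which encodes PD-L1, was lower in mTEChi (-0.44, adjusted p = 0.0042), and Pdcd1lg2, which encodes PD-L2, had 19.6 ± 0.594 and 16.5 ± 0.312 (adjusted p = 0.31). Vtcn1, another inhibitory ligand, had 0.622 ± 0.266 in mTEClo and 0.0167 ± 0.0149 in mTEChi (-2.56). It reached 0.1 RPKM in no KO mTEChi library, so the filter set its direction. Cd48 and Tnfsf18 were under 1 RPKM in both gates and were not called.

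The NF-kB and TNF receptor list, the pathway by which RANK and CD40 drive mTEC maturation, had 18 of 25 members higher and 4 lower. The non-canonical subunits Relb (44.8 ± 6.19 to 158 ± 11.6, 1.82) and Nfkb2 (1.58) and the kinase Map3k14 (0.91) rose, whereas the canonical subunit Rela fell (-0.43, adjusted p = 0.00081) and Nfkb1 had 53.0 ± 2.04 and 51.7 ± 3.86 (adjusted p = 0.75). Among receptors and adaptors, Tnfrsf1b (1.33), Traf1 (2.59), Traf6 (1.86), Traf2 (1.11) and Traf3 (0.35) rose, and Ltbr fell (34.2 ± 2.42 to 11.2 ± 0.0920, -1.60). Feedback inhibitors went both ways. Nfkbia (319 ± 8.59 to 1148 ± 19.0, 1.85), Nfkbie (1.37), Birc3 (1.72) and the RANKL decoy Tnfrsf11b (8.15 ± 0.939 to 94.3 ± 7.96, 3.52) rose. Tnfaip3, the A20 deubiquitinase, had 131, 159.6 and 155 RPKM in mTEClo and 15.9, 19.7 and 19.7 in mTEChi (-3.0, SE 0.18, adjusted p = 4.5e-10), and Bcl3 fell (-0.94). Tnf rose from 6.54 ± 1.22 to 29.1 ± 2.94, while Tnfsf11, which encodes RANKL, was under 1 RPKM in both gates.

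Of 18 chemokines 6 were higher and 5 lower. Ccl25, which attracts thymocyte precursors, rose most, from 25.2, 24.9 and 23 to 509, 514 and 416 (4.29, SE 0.26, adjusted p = 5.1e-10). Ccl19 (92.9 ± 22.5 to 357 ± 35.0, 1.97), a ligand of Ccr7, rose as well, and so did Ccl5 (1.85), Ccl22 (1.82), Cxcl9 (1.16) and Ccl27a (0.76). The falls were Cxcl14 (88.2, 78.0 and 61.4 to 0.550, 1.53 and 1.33, -6.03), Cxcl12 (21.3 ± 2.21 to 0.981 ± 0.140, -4.31), Cx3cl1 (-2.84), Ccl2 (-0.78) and Gm1987 (13.5 ± 1.74 to 1.32 ± 0.296, -3.28), a copy of the other Ccr7 ligand Ccl21 whose reads cannot be separated from those of near-identical copies. By these values Ccl19 and Gm1987 lay on opposite sides of the gates. Cxcl10 was the most abundant chemokine that was not called (552 ± 21.4 and 510.4 ± 26.6, adjusted p = 0.63), and Xcl1, which recruits dendritic cells, stayed low in both gates (0.258 ± 0.0734 and 0.122 ± 0.0693). In WT mTEChi Xcl1 had 15.4 ± 4.24, and its mTEChi minus mTEClo difference departed from that of KO cells by -5.32 (SE 0.71, adjusted p = 3.2e-05).

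Of 24 cytokines and Notch, Wnt and BMP ligands 13 fell and 8 rose. Il12a had the largest rise (2.56 ± 0.849 to 95.5 ± 3.52, 5.21), followed by Il15 (2.87), Il23a (2.22), Kitl (2.18) and Tgfb2 (2.0). The T-cell survival factor Il7 fell from 66.5 ± 0.380 to 11.2 ± 0.981 (-2.57). The alarmins Il33 (6.2 ± 0.654 to 0.190 ± 0.0410, -4.45), Il25 (-3.71) and Tslp (-2.45) fell together. Among Notch ligands Jag2 (46.8 ± 3.57 to 3.08 ± 0.0974, -3.88) and Dll1 (-3.12) fell and Dll4 rose (1.47). Bmp4 (-3.49) and Wnt4 (-2.10) fell. The highest member not called was Bmp2 (5.79 ± 0.711 and 6.66 ± 1.14).

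**Figure D2:**
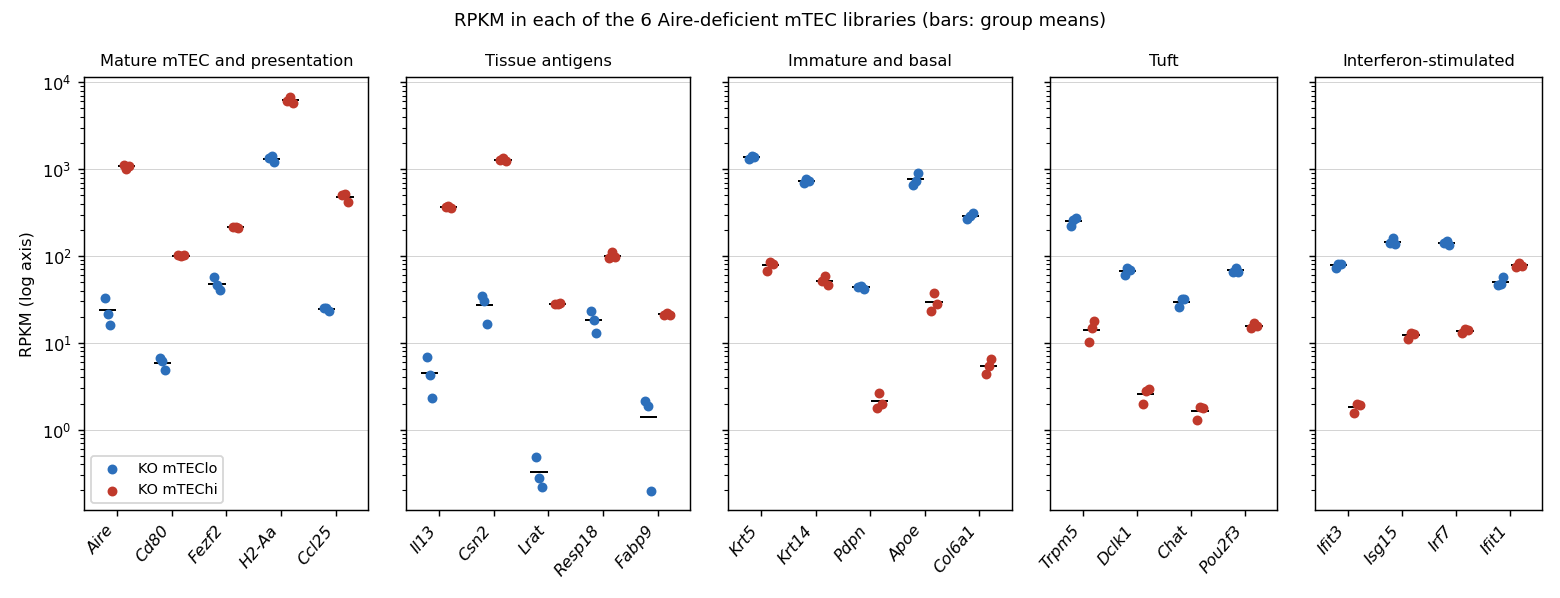
RPKM (log axis) of 23 named genes in each of the 3 KO mTEClo (blue) and 3 KO mTEChi (red) libraries, with a bar at each group mean. The 3 red and 3 blue points of a gene stand clear of each other in every panel, for example 1126, 1001 and 1092 against 33.1, 21.5 and 16.3 for Aire. These genes were picked from those called. Of all genes tested, 28.2% had no overlap in the direction of mTEChi and 53.2% in that of mTEClo.

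Markers of immature mTEC moved the other way, 15 of 18 lower and 2 higher, with a median of -1.64. The basal keratin Krt5 had 1309.7, 1412 and 1373 RPKM in mTEClo and 67.9, 86.1 and 80.5 in mTEChi (-4.13, SE 0.14, adjusted p = 7.2e-13). Its partner Krt14 fell from 734 ± 38.2 to 51.8 ± 6.37 (-3.83) and Krt15 from 59.1 ± 5.21 to 1.82 ± 0.655 (-5.00). Pdpn, a surface protein of immature mTEC near the cortex, had 43.5, 45.4 and 41.3 in mTEClo and 1.8, 2.64 and 1.99 in mTEChi (-4.29). Apoe (766 ± 133 to 29.3 ± 7.19, -4.72), Lifr (-4.96), Ly6a (-2.57), Cd24a (-2.37), Itgb4 (-1.79) and the basal regulator Trp63 (-1.48) also fell. Krt17 (-1.06), Bcl2 (-0.77), Tnfrsf19 (-0.66) and Itga6 (-0.27) had smaller differences. The tight junction genes Cldn4 (1.42) and Cldn3 (0.74) rose, and Lgals7 had 13.4 ± 2.47 and 11.5 ± 3.54 (adjusted p = 0.51). Plet1 was not analysed here.

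Genes that anchor epithelium to its basement membrane fell with the basal keratins, 15 of 19, and 2 rose. The laminin chain Lamb3 (53.6 ± 4.45 to 2.69 ± 0.144, -4.26), the type IV collagens Col4a1 (-2.81) and Col4a2 (-3.03) and Cd151 (-2.82) led the falls, and Fermt1 rose (1.89). The 15 largest falls, among genes with a mean of at least 1 RPKM in mTEClo, included matrix and contractile genes. Mfap4, a microfibril protein, had 17.4, 16.7 and 19.2 in mTEClo and 0.0458, 0.176 and 0 in mTEChi (-6.81, SE 0.28, adjusted p = 5.3e-12). The type VI collagens Col6a1 (289 ± 24.2 to 5.45 ± 1.12, -5.72) and Col6a2 (228 ± 16.9 to 3.79 ± 0.945, -5.90), which are neighbours on chromosome 10, fell together. Lox (-6.07), which crosslinks collagen, Mgp (294 ± 16.3 to 5.29 ± 0.568, -5.77) and Sparc (-5.67) are further matrix genes, and Acta2 (159 ± 15.3 to 3.04 ± 0.761, -5.69) and Myl9 (-5.70) are contractile. The others were Gas1 (-6.33), Cxcl14, Slc27a3 (-5.71), Chi3l3 (252 ± 23.8 to 4.79 ± 0.990, -5.70), Dpp6 (-5.69), Igfbp2 (-5.66) and the secreted iron-binding protein Ltf (-5.64). Chi3l3 has near-identical neighbours, so its level is uncertain. Over all genes named as collagen chains, a family taken after the values were seen, 28 of 40 tested were lower and 6 higher. Of the 28, 4 reached 0.1 RPKM in no KO mTEChi library, so the filter set their direction.

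Fibroblast and endothelial markers were lower in mTEChi too. Of the fibroblast list 7 of 10 were lower and 1 was higher, with a summed level of 39.48 to 49.16 RPKM in mTEChi and 78.17 to 113.9 in mTEClo. Col3a1 fell from 25.7 ± 7.10 to 0.531 ± 0.196, Pdgfra was under 1 RPKM in mTEClo (0.892 ± 0.323), and Dcn, the most abundant member, had 32.7 ± 5.29 and 40.0 ± 11.6 (adjusted p = 0.38). Of the endothelial list 8 of 10 were lower and 1 was higher, with sums of 18.89 to 22.66 and 33.23 to 47.77, and Pecam1 had 3.22 ± 0.308 and 4.30 ± 1.94 (adjusted p = 0.56). The part of stromal cells in the falls of matrix genes was not tested. Thymocyte markers had 2 of 15 members higher (Thy1, 2.11, and Cd4, 1.70) and 1 lower (Ptprc, -2.39), with sums of 34.19 to 58.58 and 32.92 to 55.79, and the T-cell receptor chain Cd3e had 1.28 ± 0.544 and 1.28 ± 0.674. Of the erythroid list 1 member passed the filter and was higher (Alas2, 2.46). Of 13 housekeeping genes 2 were higher and 5 lower, with a median of -0.08.

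Tuft cell genes had 18 of 19 members lower and none higher, with a median of -3.58, and the counts were the same under each of the 3 other scalings. Tuft cells are chemosensory epithelial cells that signal through Trpm5 and release Il25. Trpm5 had 222, 257 and 275 RPKM in mTEClo and 10.1, 14.9 and 17.7 in mTEChi (-4.17, SE 0.40, adjusted p = 9.7e-08). Dclk1 (67.6 ± 6.50 to 2.57 ± 0.513, -4.68), Chat (29.9 ± 3.26 to 1.64 ± 0.304, -4.12), Gnat3 (156 ± 37.2 to 11.3 ± 4.32, -3.84) and the leukotriene gene Alox5ap (409 ± 43.9 to 20.9 ± 4.32, -4.30) fell by similar amounts. The lineage factor Pou2f3 fell by less, from 65.9, 73.4 and 66.1 to 14.8, 16.8 and 15.6 (-2.11). Hmx3 was the member not called (16.9 ± 0.805 and 27.5 ± 3.20, adjusted p = 0.05). In WT libraries 17 of 19 were lower with a median of -1.98, and the fall was larger in KO than in WT for 16 of the 19 genes (of all genes tested, 34.2% were more negative in KO). For Trpm5 WT mTEClo had 127 ± 50.8 and WT mTEChi 26.2 ± 9.68, and the genotypes' differences were -1.91 apart (SE 0.56, adjusted p = 0.013). The count of 16 depended on the scaling. It was 9 with quantile-normalized values (17.7% of all genes), 5 when centred on the housekeeping mean (19.8%) and 2 when centred on the housekeeping median (11.1%), so the larger fall in KO did not hold under every scaling.

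Interferon-stimulated genes also fell, 17 of 20, with a median of -2.15, and 3 rose. Irf7, a transcription factor of the interferon response, had 141, 149 and 134 RPKM in mTEClo and 13.0, 14.4 and 14.2 in mTEChi (-3.34, SE 0.10, adjusted p = 2e-13). The antiviral genes Ifit3 (78.2 ± 5.30 to 1.82 ± 0.240, -5.36), Oas2 (17 ± 2.43 to 0.278 ± 0.0330, -5.49) and Isg15 (145 ± 12.5 to 12.2 ± 1.12, -3.56) and the signal transducer Stat2 (-2.39) fell. The exceptions were Ifit1, which had 46.4, 48.2 and 56.7 in mTEClo and 75.5, 82.5 and 77.5 in mTEChi (0.64, adjusted p = 0.00011), Oasl1 (0.46) and Usp18 (0.28), so that neighbouring members of 1 family (Ifit1 and Ifit3) went opposite ways. RefSeq windows were found for 15 of the 20 members. A short form of the interferon response element, GAAA followed by any 2 bases and GAAA again, was present on either strand in 9 of the 15 windows and in 2.98% of all windows. These shares again come from unlike sets of windows. The windows of Ifit3 and Isg15, which fell, and Ifit1, which rose, are shown with the matches in capitals, and each of the 3 holds at least 1.
Ifit3 (chr19:34583279-34583528, plus strand): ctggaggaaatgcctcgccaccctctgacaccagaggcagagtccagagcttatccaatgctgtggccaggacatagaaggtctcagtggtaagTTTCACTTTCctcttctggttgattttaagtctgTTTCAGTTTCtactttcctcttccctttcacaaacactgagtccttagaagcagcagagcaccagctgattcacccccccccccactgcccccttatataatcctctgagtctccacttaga
Isg15 (chr4:156200819-156201068, minus strand): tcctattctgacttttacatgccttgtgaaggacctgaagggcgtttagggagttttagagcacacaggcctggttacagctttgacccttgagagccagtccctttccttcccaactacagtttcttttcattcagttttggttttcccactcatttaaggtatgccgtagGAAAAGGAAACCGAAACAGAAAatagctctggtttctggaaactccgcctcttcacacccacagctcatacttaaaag
Ifit1 (chr19:34640639-34640888, plus strand): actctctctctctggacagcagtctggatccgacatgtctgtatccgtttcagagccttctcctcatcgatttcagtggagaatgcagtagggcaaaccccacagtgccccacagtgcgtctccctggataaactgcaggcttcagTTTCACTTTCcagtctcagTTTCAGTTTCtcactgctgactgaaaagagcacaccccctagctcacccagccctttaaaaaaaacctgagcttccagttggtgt

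The nearest match lay 122 bases before the start in Ifit3, 66 in Isg15 and 85 in Ifit1.

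Genes of cell dissociation stress were lower in mTEChi as well, 14 of 15, with a median of -1.55. Fos had 1399.6, 1427 and 1624 RPKM in mTEClo and 291, 305 and 342 in mTEChi (-2.25), Jun fell by 2.06 and Atf3 by 2.46 on the log2 scale, and Jund was not called. These genes respond to tissue digestion, and their part in the differences between the gates was not tested. In WT libraries 14 of 15 were lower too, with a median of -1.13. Proliferation genes were higher in 15 of 24 cases and lower in 2 (Mcm7, -0.82, and Mcm6, -0.39). Cdk1 (1.33 ± 0.659 to 8.77 ± 1.73, 2.72) and Bub1b (2.47) rose most, Mki67 rose from 2.95 ± 0.982 to 5.38 ± 0.460, and the most abundant member not called was Mcm4 (9.19 ± 0.609 and 11.3 ± 0.622). The difference was more negative in KO than in WT for 11 of the 24 genes, against 34.2% of all genes. That count was 6 with quantile-normalized values (17.7% of all genes) and 0, with 4 more positive, when centred on the housekeeping median. Of 18 apoptosis regulators 11 were higher and 3 lower. Bcl2l1, which encodes the survival factor Bcl-xL, rose from 19.7 ± 0.902 to 114 ± 8.4 (2.53), while Bcl2 fell. Fas (2.15) and Bax (1.36), which promote death, rose.

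Regulators of epithelial identity divided. Foxn1, the master regulator of thymic epithelium, rose from 21.5 ± 0.459 to 58.0 ± 3.38 (1.43, adjusted p = 1.1e-09), and Tbx1 rose (1.20), while 11 of 15 identity genes fell, among them Pax1 (77.2 ± 4.36 to 10.8 ± 0.272, -2.82), Eya1 (-2.49), Hoxa3 (-4.42), Krt19 (110.4 ± 15.2 to 8.17 ± 0.837, -3.74), Cdh1 (-1.41) and Epcam (-0.99). Krt8 was not called (689.8 ± 74.9 and 648 ± 29.1). Among 24 tested lineage regulators 9 were higher and 11 lower. Irf8 (29.3 ± 2.87 to 267 ± 7.38, 3.19), Irf4 (2.74), the neuroendocrine factor Insm1 (9.32 ± 3.25 to 128 ± 3.54, 3.81), the ciliary factor Foxj1 (2.28) and Hnf4g (1.92) rose. Spdef (-3.51), Foxa2 (-2.81), Foxi1 (-2.44), Ehf (135 ± 6.65 to 29.8 ± 1.75, -2.18), Elf3 (-2.13), Klf4 (-1.59) and Sox9 (-1.41) fell. Spib was the highest member not called (111 ± 10.4 and 172 ± 9.36, adjusted p = 0.061). Of markers of cortical epithelium 7 of 13 fell and 5 rose. Ctsl, the cortical cathepsin, fell from 596 ± 61.8 to 29.2 ± 7.18 (-4.37), while Tbata rose (42.3 ± 5.04 to 375 ± 24.9, 3.15). Psmb11 was low (0.727 ± 0.173 and 1.84 ± 0.263), and Prss16 had 18.2 ± 2.88 and 34.0 ± 5.14.

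Proteins known to bind Aire or to act with it had 12 of 19 members lower and 4 higher. With quantile-normalized values the counts were 5 lower and 4 higher, and centred on the housekeeping median they were 2 lower and 13 higher. The median of the list (-0.25) lay near that of all genes and became 0.01 with quantile-normalized values. Sirt1, a deacetylase that acts on Aire, lay far above that median, at 20.9, 18.9 and 18.7 RPKM in mTEClo and 207, 205 and 208 in mTEChi (3.40, SE 0.14, adjusted p = 7.1e-12). Crebbp (0.88) and Ccnt1 (0.33) rose and Xrcc5, a subunit of Ku, fell from 23.8 ± 1.41 to 2.46 ± 0.336 (-3.23). Ddx5 was the highest member not called (446 ± 19.4 and 487 ± 10.2).

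**Figure D3:**
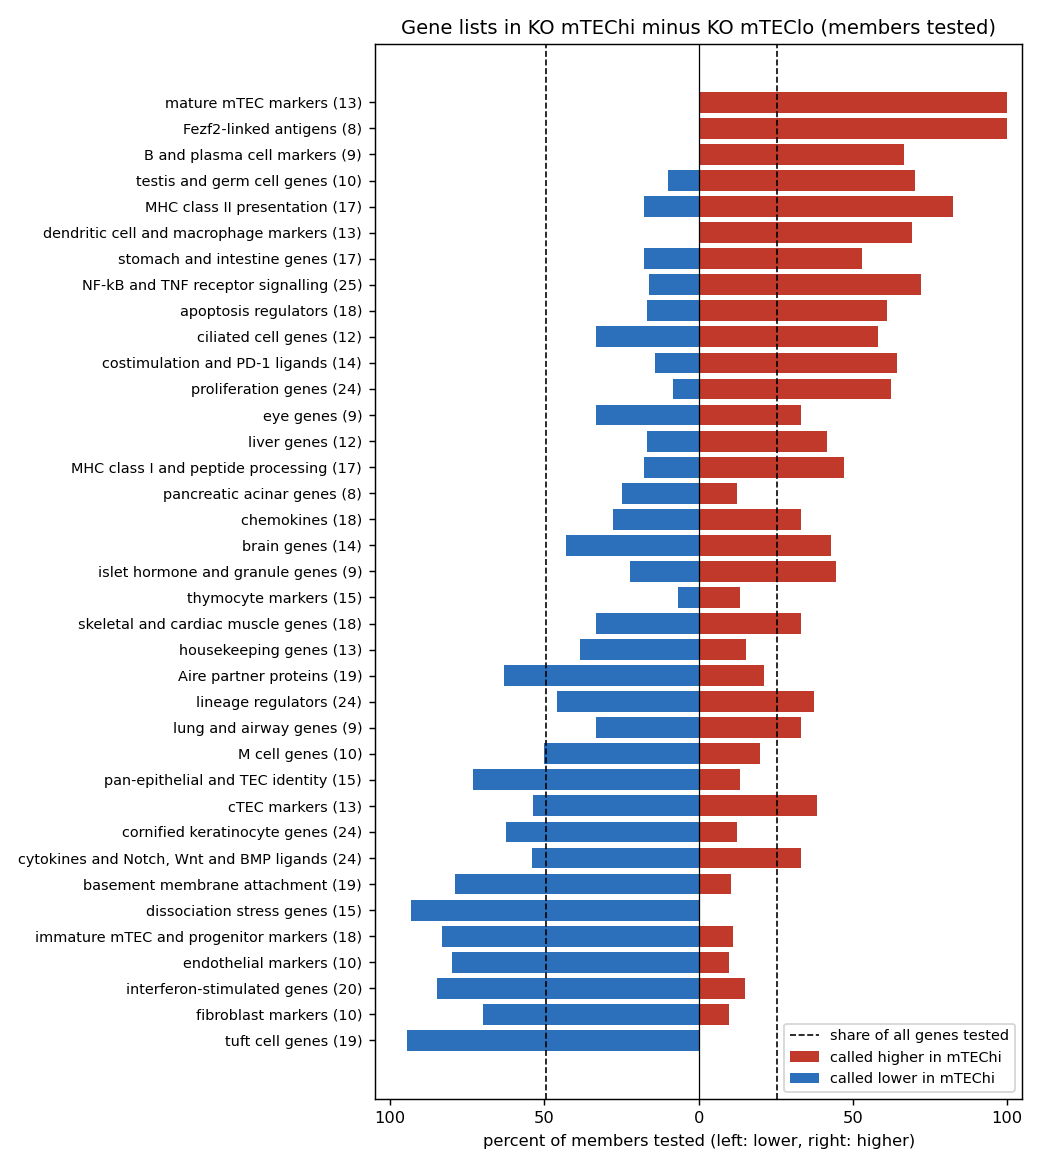
Share of the tested members of each gene list with at least 8 tested members (number in brackets) called higher (red, to the right) or lower (blue, to the left) in KO mTEChi than in KO mTEClo, ordered by median difference, with dashed lines at the shares over all genes tested (25.5% and 49.5%). The mature mTEC list reached 13 of 13 higher and the tuft list 18 of 19 lower.

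Genes known mainly from other tissues were among the largest rises in KO mTEChi. The 15 largest were led by Il13, a type 2 cytokine, at 365, 380.4 and 354 RPKM in mTEChi and 6.82, 4.22 and 2.31 in mTEClo (6.46, SE 0.36, adjusted p = 1.7e-10). Its neighbour on chromosome 11, Il4, had 19.4, 21.2 and 17.1 and 0.103, 0.222 and 0.383 (5.93, SE 0.51). Of the genes beside them Rad50 rose from 11.6 ± 0.692 to 64.3 ± 2.53 and Il5 from 0.226 ± 0.0865 to 1.06 ± 0.0526, while Kif3a was not called (7.57 ± 0.433 and 7.40 ± 0.265). Csn2, the milk protein beta-casein, was among the 10 most abundant genes of KO mTEChi, at 1266, 1358 and 1236 against 35.1, 30.4 and 16.6 (5.62). Its neighbour Csn1s1, another casein, fell from 7.78 ± 0.829 to 0.430 ± 0.175 (-3.95). Lrat, which esterifies retinol, had 28.2, 28.2 and 28.7 against 0.480, 0.278 and 0.222 (6.11), and Cyp26a1, which degrades retinoic acid, had 59.0, 59.1 and 50.6 against 1.63, 1.5 and 0.530 (5.55). The olfactory receptor gene Olfr1136 had 13.9, 15.5 and 12.1 and 0.260, 0.0572 and 0.0383 (6.12). The others were Marc1 (2.24 ± 0.932 to 121 ± 3.34, 5.78), Cacng8 (5.71), the axon guidance gene Slit1 (5.67), Ripply2 (5.65), the sterol esterifying enzyme Soat2 (5.62), Crhbp (5.57), which binds corticotropin-releasing hormone, Aire, Crtac1 (5.52) and Dusp15 (5.52). For each of the 15 genes the KO and WT differences had the same sign, and of these genes the difference between genotypes was called for Olfr1136 (1.82, SE 0.51, adjusted p = 0.0099).

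The 8 genes of the list linked to Fezf2 were all higher in KO mTEChi, with a median of 2.74, and all 8 were higher in WT too. Besides Fezf2 these were Coch (0.315 ± 0.143 to 7.84 ± 1.41, 4.31), expressed in the inner ear, Fabp9 (1.41 ± 1.06 to 21.3 ± 0.583, 4.28), expressed in testis, Ttr (3.08), Calb1 (2.94), Maoa (2.54), Resp18 (23.5, 18.4 and 12.9 to 95.5, 111 and 97.1, 2.50) and Apob (1.89). Apob (-3.21) and Calb1 (-1.64) rose less in KO than in WT, and Maoa (0.70) rose more.

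Genes specific to other organs, in 13 lists, went both ways. Of their 219 members 217 were in the tables and 121 passed the filter, of which 50 were higher (41.3%), 34 lower (28.1%) and 37 not called. The 96 that did not pass had under 0.1 RPKM in at least 4 of the 6 KO libraries, and 90 of them had a mean of at least 0.1 RPKM in WT mTEChi, so the members tested are those that KO mTEC still transcribe. A gene near 0 in one gate passed only through the other, and the counts are a description for that reason. Examples of genes that did not pass are Sst, the hormone somatostatin (0.00393 ± 0.00681 in KO mTEChi and 31.0 ± 1.73 in WT mTEChi), and Muc5ac, a gastric mucin (0.0375 ± 0.0123 and 8.50 ± 1.18).

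By organ, stomach and intestine genes had 9 of 17 higher and 3 lower. Atp4b, a subunit of the gastric proton pump, rose from 0.297, 0.0642 and 0.0522 to 2.66, 2.84 and 2.92 (3.76), and the intestinal genes Sis (3.54), Fabp6 (3.46) and Apoa4 (1.35 ± 0.731 to 11.9 ± 2.13, 3.19) rose, while Cck (5.95 ± 1.22 to 0.254 ± 0.171, -4.18), Vil1 (-0.89) and Lct (-0.65) fell. Testis and germ cell genes had 7 of 10 higher and 1 lower, led by Stra8 (0.565 ± 0.0907 to 11.8 ± 0.982, 4.17), Fabp9, Prm2 (3.39) and Zp2 (11.8 ± 1.89 to 104 ± 5.61, 3.14). Liver genes had 5 of 12 higher, among them F2 (3.33), Apoc3 (3.09) and Apoh (3.02), and Ambp (-3.20) and Ahsg (-1.67) lower. Islet genes had 4 of 9 higher, with Gcg, which encodes glucagon (4.17), Gad1 (0.524 ± 0.161 to 8.38 ± 0.318, 3.79), Resp18 and G6pc2 (1.37), and Chgb (-3.85) and Pyy (-1.77) lower.

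Skeletal and cardiac muscle genes split evenly, 6 of 18 higher and 6 lower. The fast myosin Myh4 (0.922, 1.89 and 0.658 to 16.9, 17.6 and 17.8, 3.92) and Actn3 (24.2 ± 5.38 to 159 ± 8.86, 2.74) rose, while Acta1 (8.76, 4.62 and 3.12 to 0.0441, 0.209 and 0.0789, -4.68), Myl1 (-4.24) and Tnnc2 (-3.89) fell, so genes of 1 contractile apparatus went opposite ways. Brain genes split as well, 6 of 14 each way, with Syt1 (24 ± 3.05 to 121 ± 1.93, 2.33) and Mbp (1.79) higher and Nrgn (74.1 ± 7.94 to 2.95 ± 0.520, -4.61), Nefl (-3.74) and Mag (-3.0) lower. Eye genes had 3 of 9 each way, with Rgr, an opsin of the retinal pigment epithelium (0.208 ± 0.110 to 10.3 ± 0.646, 5.13), higher and Sag (-2.21) lower. Lung genes had 3 of 9 each way, with Napsa (3.09) higher and Sftpd (-1.12) lower, and kidney genes had 3 of 6 higher, with Slc12a1 (2.36), and 2 lower, with Umod (2.13 ± 0.225 to 0.179 ± 0.139, -3.16). Of 8 tested acinar genes 1 was higher (Ctrl, 1.64) and 2 were lower, among them Cel (-1.0). Of 4 salivary genes 2 were lower, Bpifa1 (146 ± 18.2 to 17.4 ± 10.9, -3.23) and Amy1 (-1.85). Milk genes had Csn2 and Csn3 (2.50) higher and Csn1s1 lower, and of 2 seminal vesicle and prostate genes Spink3 was higher (1.83) and Tgm4 lower (-0.63).

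Lists of differentiated surface epithelia differed from each other. Of 24 cornified keratinocyte genes 15 were lower and 3 higher, with a median of -0.85, and centred on the housekeeping median 7 were lower and 5 higher. Lor, the main protein of the cornified envelope, fell from 31.6, 15.6 and 12.7 to 2.27, 2.78 and 1.09 (-3.20, SE 0.55), and Sprr1a (176 ± 21.4 to 57.0 ± 7.63, -1.63), Krtdap (-1.46), Ivl (-1.34) and Cdsn (-2.48) fell, while Tgm3 rose (0.952 ± 0.219 to 13.3 ± 0.429, 3.69). Krt10 had 21.4 ± 0.983 and 16.7 ± 2.11 (adjusted p = 0.074). The M cell genes Gp2 (135 ± 16.1 to 11.7 ± 3.38, -3.55) and Sox8 (-1.01) fell, with 5 of 10 members lower and 2 higher, a share close to that of all genes. Of 12 ciliated cell genes 7 were higher, with Foxj1 and Spag6 (2.89), and 4 lower, with Tekt1 (-2.59).

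The last question was where the difference between the gates without Aire departed from that with it. The mTEChi minus mTEClo differences of the 2 genotypes, which share no library, correlated across genes with Pearson's r = 0.78 and Spearman's rho = 0.75 over 16941 genes, which are not independent replicates. These genes had to pass in KO libraries, so genes that only WT mTEC transcribe are left out here and from the counts below. Genes at 0.1 RPKM or more numbered 19428 to 19558 in the WT mTEChi libraries and 16428 to 16512 in the KO mTEChi libraries. Of the 4313 genes higher in KO mTEChi 3677 (85.3%) were also higher in WT, which is 61.9% of the 5941 genes higher in WT. Of the 8383 genes lower in KO 5426 (64.7%) were also lower in WT, which is 90.3% of the 6011 genes lower there. A further 705 genes were lower in KO and higher in WT, and 93 genes were higher in KO and lower in WT. In the test of the difference between genotypes 40.7% of genes were called, of which 1110 genes (6.55% of all tested) were more positive in KO and 5791 (34.2%) more negative. Without the filter on low values 1160 genes were more positive in KO and 8443 more negative. The split of the genes tested also depends on the scaling. Quantile-normalized values gave 3728 and 3003 and moved the median of the difference between genotypes from -0.29 to 0.06. Single genes are therefore read against a shift of that size.

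**Figure D4:**
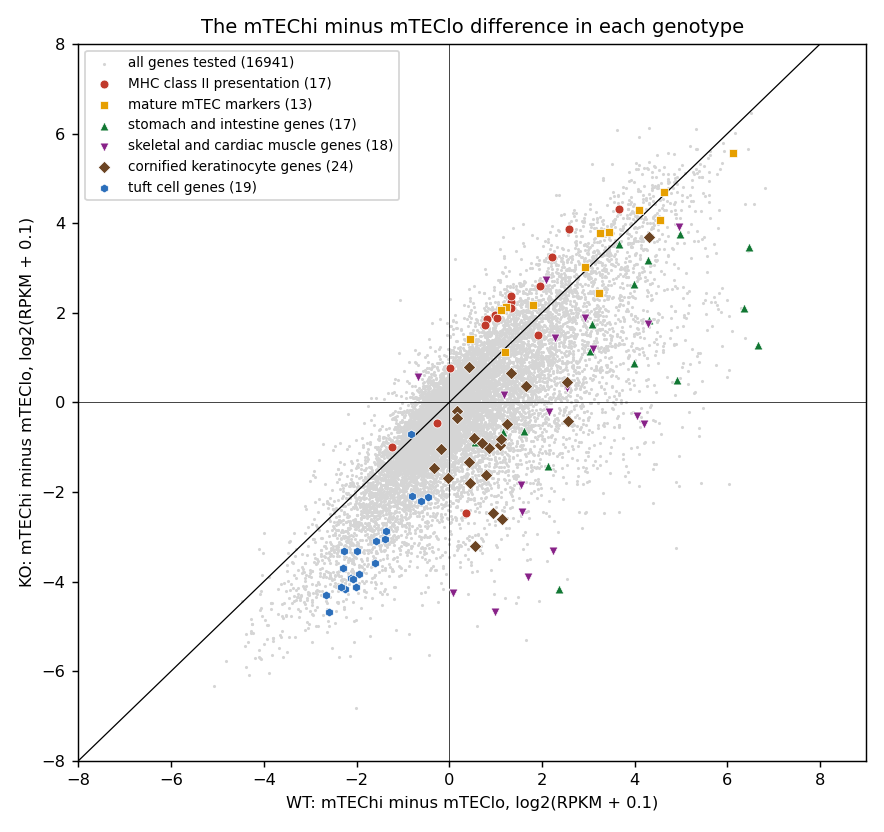
The mTEChi minus mTEClo difference on the log2(RPKM + 0.1) scale in WT (x axis) and KO (y axis) for the 16941 genes (grey) and 6 gene lists (coloured), with the line of equal difference. Most class II genes lie on or above the line (March1, at -2.82 from it, lies farthest below) and mature markers close to it, while most muscle, stomach and keratinocyte genes lie below it and tuft genes are lower on both axes.

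Class II presentation had 10 of 17 genes more positive in KO (background 6.55%), with 1 more negative (March1, -2.82, which passed the filter through KO mTEClo alone). With quantile-normalized values the count was again 10, against 22.0% of all genes. It was 12 when centred on the housekeeping mean (16%) and 15 when centred on the housekeeping median (44.4%), settings under which the NF-kB list had 13 and 18 of 25. For H2-Aa the WT levels were 4372 ± 183 in mTEChi and 1743 ± 119 in mTEClo, against 6206 ± 530.2 and 1309 ± 103 in KO, and the differences were 0.92 apart (SE 0.25, adjusted p = 0.0078), a call lost with quantile-normalized values. The same contrast was 1.30 for H2-Ob, 1.03 for H2-Oa and 0.91 for Ciita. Among single genes the 8 most positive were Igj (3.35), Olfr1138 (2.53), Klhl3 (2.38), Lrp1b (2.34), Calcrl (2.29), Ptchd4 (2.27), Eif5a2 (2.21) and Tnfaip8l3 (2.07). Igj is a member of the B and plasma cell list. It had 1.42 ± 0.868 in KO mTEChi and 0.171 ± 0.0599 in KO mTEClo, against 3.28 ± 0.901 and 7.11 ± 2.97 in WT. Calcrl, a receptor of the calcitonin family, had 39.8, 39.7 and 42.2 in KO mTEChi and 7.83, 8.33 and 8.13 in KO mTEClo, whereas WT mTEChi and mTEClo had 16.8 ± 1.21 and 16.5 ± 0.386. Eif5a2, a translation factor, rose from 2.67 ± 0.413 to 21.6 ± 0.337 in KO and from 2.25 ± 0.0290 to 3.89 ± 0.0967 in WT. Olfr1138 lies beside Olfr1136 on chromosome 2, and at 1.90 ± 0.0586 in KO mTEChi it was low.

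The 8 most negative were called higher in WT mTEChi and lower in KO mTEChi. Of these Krt13, Sln and Dlk1 reached 0.1 RPKM in no KO mTEChi library and passed the filter through mTEClo alone, so that their direction in KO was set by the filter. Crisp3 also needed its KO mTEClo libraries to pass, since 0.180 was its only KO mTEChi value above 0.1 RPKM. Crisp3, a secreted salivary gland protein, had 0.00718, 0.180 and 0.0652 in KO mTEChi and 0.713, 1.92 and 2.49 in KO mTEClo, against 6.25 ± 1.23 and 0.118 ± 0.0591 in WT, a difference between genotypes of -8.13 (SE 0.68, adjusted p = 5.2e-07). The neuropeptide galanin, Gal, had 0.232 ± 0.0925 and 1.12 ± 0.483 in KO and 39.7 ± 7.37 and 0.603 ± 0.434 in WT (-7.85). The gut hormone Pyy had 1.03 ± 0.386 and 3.62 ± 0.645 in KO and 56.8 ± 9.75 and 1.95 ± 1.03 in WT (-6.66). The others were the mucosal keratin Krt13 (-7.24), the muscle regulator Sln (-6.96), Dlk1 (-6.84), the epidermal protease Klk5 (-6.63) and Cck (-6.55). Gal, Pyy, Klk5 and Cck reached 0.1 RPKM in every KO mTEChi library, and for these genes the KO mTEClo libraries lay above the KO mTEChi libraries. By list, cornified keratinocyte genes were more negative in KO in 17 of 24 cases, stomach and intestine genes in 12 of 17 and muscle genes in 12 of 18, against 34.2% of all genes. With quantile-normalized values these counts were 15, 11 and 12, against 17.7% of all genes. Over the 13 organ lists 69 of 121 tested members were more negative and 3 more positive, and 97 were higher and 7 lower in WT. The mature mTEC list had 2 of 13 genes more positive and none more negative.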

How the data were processed

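Thymic stromal cells were enriched and sorted by flow cytometry, and total RNA was made into libraries by Illumina's standard procedure, per the labels' protocols. The authors deposited for each of the 18 libraries 1 table of 23063 genes with RPKM values and with the aligned bases summed over each gene, a signal used here only for depth. The submitters' processing notes list CASAVA 1.8.2 and the genome build mm10. For the sequencer, annotation, strand handling and alignment, nothing is given in the sources used here. The tables hold 1 value per gene, so exons, alleles and near-identical copies cannot be told apart, and 12 symbols occur in more than 1 place.

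The RPKM were used as deposited. A gene was tested when 3 or more of the 6 KO mTEC libraries reached 0.1 RPKM. The model, fitted to log2(RPKM + 0.1) by limma 3.58.1 (R 4.3.3) with a trended eBayes prior, had 6 group means over all 18 libraries, so that all groups share 1 estimate of the spread with 12 residual degrees of freedom. The contrasts were mTEChi minus mTEClo in KO, the same in WT, and the first minus the second. The call threshold was 0.05 for the p adjusted by Benjamini and Hochberg's method. Changes of genes near 0 depend on the added 0.1 and are no bounds. RPKM are not counts, so no counting interval is given and the precision is that of 3 libraries. The fit was tested on simulated data in which few genes changed, unlike here, so that test does not bear on the scaling. Spearman and Pearson correlations, counts over gene lists and promoter matches are descriptions without a test.

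The comparison, the gene lists and the rule for named genes were chosen with earlier results of these data known. Named are Aire, the 15 largest called rises and falls without overlap between libraries and with a mean of at least 1 RPKM (predicted models, small RNAs and antigen receptor segments left out here and next), the 8 most positive and 8 most negative called differences between genotypes, up to 5 members of each list with the smallest adjusted p, the highest member not called, and any member of the mature and immature mTEC, class II, costimulation, chemokine and NF-kB lists. Other genes named, such as Usp18 or members with larger changes, and the collagen family were chosen after their values were seen. Promoter windows are RefSeq sequences of GRCm38.p6. They were found for 74.7% of the genes tested, so a planned comparison of base composition between called genes was void and is not given. Alternatives were other pseudocounts, filters, scalings, libraries and priors, a replicate block and leaving out each library. Single values of a few list members are not reported here, but the members are in the counts.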

Additional observations from a re-analysis of the deposited data

Results flagged for a closer look

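The mTEChi minus mTEClo difference was tested between genotypes by the interaction contrast of the limma fit, and the genes below passed it. Groups of 3 libraries were too small for a test of single outlying libraries. Each value is the KO difference minus the WT difference on the log2(RPKM + 0.1) scale.

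The 15 genes with the largest falls in KO all had a more negative difference than in WT, where 14 of them were called lower and Ltf was not called. They were chosen for their KO difference, which is part of the contrast, so this is favoured by the choice, and 34.2% of all genes were more negative in KO. These were Mfap4 (-4.79), Gas1 (-1.26), Lox (-1.75), Cxcl14 (-2.15), Col6a2 (-1.52), Mgp (-0.94), Col6a1 (-1.66), Slc27a3 (-1.64), Chi3l3 (-4.42), Myl9 (-1.52), Dpp6 (-1.59), Acta2 (-2.10), Sparc (-3.31), Igfbp2 (-3.52) and Ltf (-5.21). Called higher in both genotypes, and more so in KO, were Olfr1136 (1.82), Olfr1138 (2.53), Klhl3 (2.38), Lrp1b (2.34), Ptchd4 (2.27), Eif5a2 (2.21), Ciita (0.91), H2-Aa (0.92), H2-Oa (1.03), H2-Ob (1.30) and Maoa (0.70). Called higher in both, and less so in KO, were Apob (-3.21) and Calb1 (-1.64). Called higher in KO and not called in WT were Igj (3.35), Calcrl (2.29) and Tnfaip8l3 (2.07). Called lower in KO and higher in WT were Crisp3 (-8.13), Gal (-7.85), Krt13 (-7.24), Sln (-6.96), Dlk1 (-6.84), Pyy (-6.66), Klk5 (-6.63) and Cck (-6.55). Among them Crisp3, Krt13, Sln and Dlk1 passed the filter only with their KO mTEClo libraries. Called lower in KO and not called in WT was March1 (-2.82), which also passed the filter only with its KO mTEClo libraries. Called lower in both, and more so in KO, was Trpm5 (-1.91). Not called in KO and higher in WT was Xcl1 (-5.32).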

How the results depend on the processing

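Leaving out each library in turn gave 4019 to 4192 genes higher and 7891 to 8235 lower in KO mTEChi, and 918 to 1037 more positive and 5048 to 5609 more negative in the test between genotypes. It gave a difference in detected genes of 75.3 to 176.3, and at 1 RPKM as the limit of detection that difference was -249.7. A 2-fold minimum left 2751 higher and 3918 lower. Without the filter on low values 4567 genes were higher and 8444 lower, and the genotype test gave 1160 and 8443. The scaling moved the split of calls most. Centred on the median of 13 housekeeping genes, 8914 genes were higher and 3231 lower (median of all genes 0.46), and the genotype test gave 7516 and 1885 (median 0.49). With quantile-normalized values the genotype test gave 3728 and 3003 (median 0.06). Centring on the housekeeping mean, chosen after seeing the data, gave 2702 and 3346 (median 0.02). Quantile values kept 4288 of the 4313 genes higher in KO and 6393 of the 8383 lower, with 9 called the opposite way.

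List medians that changed sign under the housekeeping median were lineage regulators (0.32), M cell (0.27), salivary (0.06), muscle (0.74), lung (0.27), Aire partners (0.51), epithelial identity (0.14) and housekeeping (0.68). Muscle (0.25) and Aire partners (0.01) did so with quantile values, and muscle (0.13) and housekeeping (0.07) with the housekeeping mean. Of 300 genes named with a KO difference, 52 changed sign or side of the threshold under at least 1 alternative, and of 28 named with a genotype difference 7 did. Signs changed with quantile values for B2m (-0.91), Bmp2 (0.19), H2-K1 (-0.76), Mcm4 (0.04) and Pecam1 (0.10). They changed with the housekeeping median for Bmp2 (0.57), Cd274 (0.32), Dcn (0.50), Ddx5 (0.63), Emr1 (0.37), Erap1 (0.29), Hmx3 (0.07), Itga6 (0.49), Itgax (0.25), Lct (0.11), Mcm4 (0.47), Mcm6 (0.37), Pecam1 (0.46), Rela (0.33), Rfxank (0.30), Spib (0.13), Tap1 (0.28), Tap2 (0.47), Tgm4 (0.13) and Tnfrsf19 (0.10), and for the genotype difference of Aire (0.22). With the housekeeping mean Ddx5 was at 0.02. Leaving out 1 library changed the sign of genes not called, namely Cd3e (-0.40 to 0.43), Kif3a (-0.01 to 0.08), Itgam (-0.07 to 0.39), Nfkb1 (-0.00 to 0.10), Lgals7 (-0.03 to 0.41) and Pecam1 (-0.67 to 0.01). The causes were not tested.

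The replicate block gave 4358 higher and 8418 lower, and 1159 and 5924 in the genotype test. Same-numbered KO mTEChi and mTEClo libraries deviated from their group means with correlations of 0.05, -0.00 and 0.15, and the WT pairs with 0.06, 0.19 and 0.13. In WT every library correlated best with its own number and in KO this was not so, a hint from the data. Neither set passed 0.1 in every pair, so the numbers were not taken to pair the libraries. RPKM hold no counts, so the limit that depth sets on genes near 0 is unknown.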

Other observations

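Gene families taken by symbol, after values had been seen, gave further descriptions of the KO difference. The background is 25.5% of genes higher and 49.5% lower. Of the olfactory receptor genes 37 of 1088 passed the filter, and 23 were higher and 7 lower. Of the 23, 12 reached 0.1 RPKM in no KO mTEClo library, so that their direction was set by the filter, and the counts are a description only. Of 10 tested Skint genes, which encode butyrophilin-like proteins of skin and thymus, 6 were higher and 1 lower, with a median of 1.59 in both genotypes. Of 36 subunits of mitochondrial complex I, 25 were lower and 1 higher in KO mTEChi (median -0.45), against 10 lower and 2 higher in WT (median -0.14). That median was 0.31 when centred on the housekeeping median, so its sign depends on the scaling. Of 10 tested laminin chains 9 were lower in KO and 8 in WT, with medians of -1.86 and -1.51.

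The counts of keratins and collagens called in each direction differed between genotypes. Of 38 tested keratins 12 were higher and 17 lower in KO, whereas 30 were higher and 5 lower in WT, and 27 were more negative in KO in the test between genotypes. Of 40 collagen chains 6 were higher and 28 lower in KO against 17 and 14 in WT, and 31 were more negative in KO. The share of all genes more negative in KO was 34.2%. With quantile-normalized values that share was 17.7%, and the family counts of the genotype test were not taken under other scalings. Of the members lower in KO, 3 keratins and 4 collagens reached 0.1 RPKM in no KO mTEChi library, so the filter set their direction. Likewise 1 keratin and 1 collagen that were higher reached it in no KO mTEClo library. The keratin median in KO was -0.16, and 0.60 when centred on the housekeeping median, so its sign depends on the scaling. Families are described by counts and medians without a test.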
